A study of Rattus norvegicus with 32 samples.

Results

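The genes described here encode the enzymes and regulators of cholesterol and fatty acid synthesis. A member is any array probe for a rat gene whose name in the scanner files equals one of 38 listed symbols, controls excluded. Of these names 33 had a probe, 38 probes in all, among 26583 gene names and 30367 probes on the array. Cyp51a1, Msmo1 and Sc5d had no probe under these newer names, but their older names Cyp51, Sc4mol and Sc5dl did. Srebf1 and Scd2 had no probe of that name. The probe named Scd is aimed at the transcript that RefSeq (GRCr8) now calls Scd2, and the probe named Scd1 at the one it now calls Scd.

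Cells build cholesterol from acetyl-CoA through mevalonate and squalene, and long-chain fatty acids through acetyl-CoA carboxylase, fatty acid synthase, the elongases and the desaturases. Transcription of both branches is driven by the sterol regulatory element-binding proteins, SREBPs, which the escort protein Scap carries out of the endoplasmic reticulum when sterols are scarce and which the Insig proteins hold back when sterols are plentiful. Because Insig1 is itself an SREBP target, its mRNA is widely used as a readout of the pathway.

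C6 cells, an established rat glioma line, were grown to confluence in serum-containing medium and studied as a single cell line, so that nothing here speaks to other gliomas. At 3 h and at 6 h there were 4 groups: Control, which received no agent; Ang II, angiotensin II at 100 nM; Ang II+Los, Losartan (an antagonist of the AT1 receptor) at 10 µM given 30 min before Ang II; and Ang II+PD123319, the AT2 receptor antagonist PD123319 at 10 µM given 30 min before Ang II. Each of the 8 groups has 4 replicates and each replicate is 1 one-colour Agilent array, 32 in all. No group received an antagonist alone. The labels do not say whether replicates are separate cultures, so p-values measure the spread between these samples, which may be partly technical.

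Arrays with the same replicate number at one time lay on the same slide, and Control, Ang II, Ang II+Los and Ang II+PD123319 always lay at positions 1 to 4 of it. Position on the slide and treatment therefore cannot be told apart. Between 55.9% and 64.7% of the probes were well above background at 3 h and between 64.2% and 79.8% at 6 h. At 3 h the replicate 2 pairs were the noisiest: over all genes, the spread of their log2 differences (scaled median absolute deviation) was 0.538 for Ang II x Control and 0.716 between Ang II+Los and Ang II, against 0.199 to 0.359 and 0.184 to 0.377 in the other replicates. The glial and astrocytoma markers S100b, Vim, Nes and Cd44 were well above background on 16 of 16 arrays at each time, whereas Gfap was so on 0 at 3 h and 2 at 6 h and Fabp7 on 0. Among markers of other cell types Snap25, Tubb3, Aif1, Cd68, Itgam and Mag were above background on 16 of 16 arrays at each time, and Syt1, Ptprc, Pecam1 and Tek on 0. After removal of dim probes 32 members remained at each time, within 13628 genes tested at 3 h and 16441 at 6 h. Acaca, acetyl-CoA carboxylase alpha, had signal well above background on at most 3 of 4 arrays of any group and was not tested.

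The regions just upstream of 5 members that the results below turn on are shown first, because SREBPs act at promoters together with the CCAAT-binding factor NF-Y and with Sp1. They are the 250 bases before the annotated start in RefSeq (GRCr8): Hmgcs1 at chr2:53382054-53382303 (plus strand), Idi1 at chr17:66547525-66547774 (minus strand), Nsdhl at chrX:155817110-155817359 (plus strand), Insig1 at chr4:8057770-8058019 (minus strand) and Tm7sf2 at chr1:212789542-212789791 (minus strand). The first 4 had higher signal with Ang II at 6 h, and Tm7sf2 had lower signal. They were picked from the members called there, so their windows are not a test. Insig2 and Pmvk were also higher there. The Insig2 window, not shown, held ATTGG but neither GGGCGG nor CACGTG, and Pmvk had no promoter entry. Capitals mark ATTGG (the reversed CCAAT box), GGGCGG (a GC box) and CACGTG (an E-box), on either strand.
Hmgcs1: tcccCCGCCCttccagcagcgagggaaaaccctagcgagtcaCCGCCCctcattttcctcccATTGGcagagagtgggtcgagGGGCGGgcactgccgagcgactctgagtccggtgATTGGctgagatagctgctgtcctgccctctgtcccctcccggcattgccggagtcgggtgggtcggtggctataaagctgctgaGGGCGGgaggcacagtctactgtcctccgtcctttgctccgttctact
Idi1: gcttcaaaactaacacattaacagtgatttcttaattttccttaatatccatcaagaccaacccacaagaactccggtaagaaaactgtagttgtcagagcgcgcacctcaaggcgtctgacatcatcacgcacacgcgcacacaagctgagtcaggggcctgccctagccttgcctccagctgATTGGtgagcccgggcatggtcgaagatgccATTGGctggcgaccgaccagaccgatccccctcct
Nsdhl: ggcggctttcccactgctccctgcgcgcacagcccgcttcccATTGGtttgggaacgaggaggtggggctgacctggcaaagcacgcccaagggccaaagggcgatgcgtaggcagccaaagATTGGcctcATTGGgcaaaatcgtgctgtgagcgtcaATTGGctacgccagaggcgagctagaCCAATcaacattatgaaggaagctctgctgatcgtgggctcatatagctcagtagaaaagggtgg
Insig1: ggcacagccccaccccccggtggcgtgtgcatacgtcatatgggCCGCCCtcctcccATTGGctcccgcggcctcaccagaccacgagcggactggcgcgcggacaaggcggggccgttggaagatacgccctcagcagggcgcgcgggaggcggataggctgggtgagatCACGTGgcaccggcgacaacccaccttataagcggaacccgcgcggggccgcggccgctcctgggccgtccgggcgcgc
Tm7sf2: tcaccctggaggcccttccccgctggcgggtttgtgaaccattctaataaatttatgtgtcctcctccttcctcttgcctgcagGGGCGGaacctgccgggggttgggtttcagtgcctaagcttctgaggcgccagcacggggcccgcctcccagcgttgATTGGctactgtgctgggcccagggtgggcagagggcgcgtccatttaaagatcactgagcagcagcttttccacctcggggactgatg
The motif ATTGG occurred 5 times in the Nsdhl window, 2 times in those of Hmgcs1 and Idi1, and 1 time in those of Insig1 and Tm7sf2. Of 32 tested members 26 had a promoter entry: ATTGG was found in 20 of them (76.9%; 34.0% of all 33469 promoter windows), GGGCGG in 20 (76.9%; 30.5%), CACGTG in 4 (15.4%; 5.59%), and the sterol element letters TCACNCCAC in 0 (0.974% of all). These are letter matches, not measured binding sites.

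The largest differences among these genes were between replicates, not between treatments. At 6 h, the replicate number took a median of 95.8% of a member's sum of squares over the 16 arrays (15.2% for Elovl5 up to 99.2% for Scd1), and the treatment took 1.45%. Over all genes the medians were 65.2% and 9.92%. At 3 h the medians were 89.4% and 3.64% for the members, and 57.1% and 13.5% for all genes. The standard deviation over 16 arrays had a median of 0.712 log2 units for the members at 6 h and 0.279 for all genes.

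Replicate 1 was the low set at both times. Relative to the mean of the other 3 replicates of the same treatment, averaged over the 4 treatments, 30 of 32 members lay below 0 at 6 h, with a median log2 difference of -1.49, whereas all genes had a median of -0.0376. For 25 of the 32 members all 4 arrays of replicate 1 lay below all 12 other arrays, which held for 9.35% of all genes. At 3 h this was so for 14 of 32 members (7.21% of all genes), and the median log2 difference was -0.807. This pattern was noticed in the values and is given without a test. The Control arrays of replicate 1 were low as well.

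Scd1, a desaturase that makes monounsaturated fatty acids, gave the widest gap. At 6 h the replicate 1 arrays read 5.88 in Control, 5.58 with Ang II, 5.54 with Ang II+Los and 6.12 with Ang II+PD123319 (normalised log2 signal), and the 12 other arrays read 9.38 to 9.97. The difference of -3.92 log2 units is 15.2-fold, and 3 h gave -3.80. Only 1 of the 16441 genes had a larger drop at 6 h.

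Insig1 read 8.26 to 8.98 on the replicate 1 arrays at 6 h and 11.01 to 11.58 on the others, a difference of -2.64. Tm7sf2, a sterol reductase, differed by -2.84, Hmgcs1, the cytosolic HMG-CoA synthase, by -2.22, Fdps, farnesyl diphosphate synthase, by -2.17, Hsd17b7, a 3-ketosteroid reductase of the pathway, by -2.04, and Fasn, fatty acid synthase, by -1.97. For each of these 6 genes all 4 replicate 1 arrays were below all others. By branch, 7 of 7 mevalonate genes, 9 of 11 sterol genes, 4 of 5 genes of control and transport and 5 of 9 fatty acid genes behaved this way at 6 h.

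**Figure D1:**
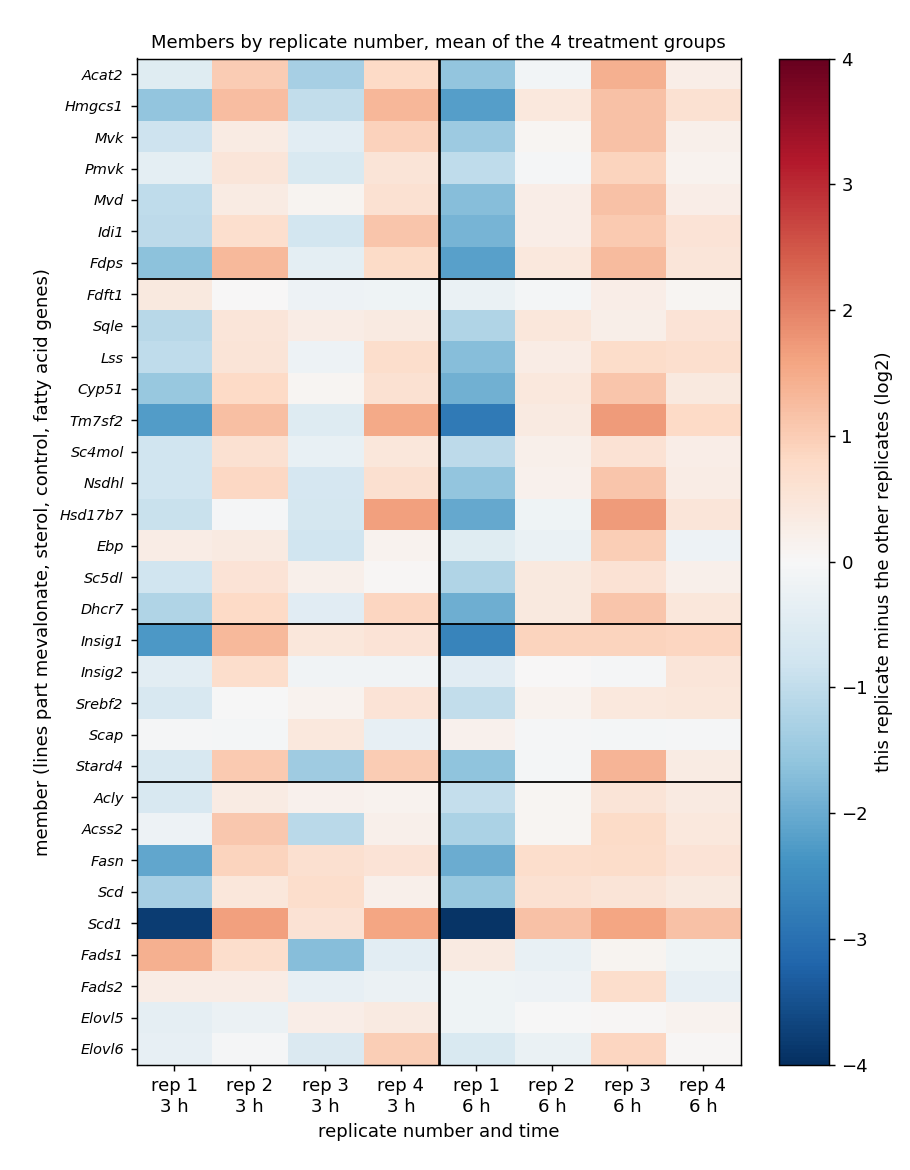
Difference of each replicate from the mean of the other 3 replicates (log2, averaged over the 4 treatment groups) for the 32 tested members at 3 h and 6 h; blue is lower, red is higher. The replicate 1 columns are blue for nearly all members, down to -3.92 for Scd1 at 6 h, while Scap, Fads1 and Fads2 are pale or red in places.

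A few members did not follow. At 6 h Scap, the SREBP escort, was 0.18 higher in replicate 1, and Fads1, a desaturase of polyunsaturated fatty acids, 0.35 higher, while Elovl5 (-0.16), Fads2 (-0.18), Fdft1 (-0.26), Ebp (-0.48) and Elovl6 (-0.62) overlapped the other arrays. Srebf2, the SREBP gene measured here, was 1.00 log2 unit lower (log2 difference -0.997), with all 4 arrays below the rest. The other members with all 4 arrays below at 6 h were Dhcr7, which makes the last step to cholesterol (-1.95), Cyp51 (-1.92), Idi1 (-1.86), Lss, lanosterol synthase (-1.71), Mvd (-1.71), Stard4 (-1.61), Nsdhl (-1.58), Acat2 (-1.57), Scd (-1.52), Mvk (-1.45), Acss2, which makes acetyl-CoA from acetate (-1.27), Sqle (-1.21), Sc5dl (-1.20), Sc4mol (-1.05), Pmvk, Acly, which makes acetyl-CoA from citrate (-0.96), and Insig2 (-0.46).

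At 3 h the gap was narrower. Scd1 (-3.80), Insig1 (-2.30), Tm7sf2 (-2.22), Fasn (-2.07), Fdps (-1.65), Hmgcs1 (-1.58), Cyp51 (-1.52) and Scd (-1.33) led the 14 members whose replicate 1 arrays were all below the rest, with Dhcr7, Sqle, Mvd, Lss, Sc5dl and Acly. The fatty acid desaturase Fads1 went the other way, 1.43 higher in replicate 1. Fdft1 (0.39), Ebp, a sterol isomerase (0.30), and Fads2 (0.29) were above 0 too.

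The other replicates were spread as well. Replicate 3 was the high set at 6 h: 17 of 32 members had all 4 arrays above the 12 others (5.02% of all genes), with a median of 0.871, led by Hsd17b7 (1.70), Tm7sf2 (1.69) and Scd1 (1.58). At 3 h, by contrast, replicate 3 had a median of -0.307, and replicates 2 and 4 were high, with 0.581 and 0.543. Only replicate 1 was low at both times. Slides and scans differed between the times, and no label ties a replicate number at 3 h to the same number at 6 h.

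Other lists of genes were read in replicate 1 at 6 h in the same way. Of the genes for sterol export and storage 6 of 7 lay below 0 and 3 of 7 had all 4 arrays below the rest (9.35% of all genes had), with a median of -0.525, among them Abcg1, a sterol exporter, at -1.71 and Mylip, which marks lipoprotein receptors for breakdown, at -1.28. Fatty acid oxidation and ketogenesis had a median of 0.145 over 9 genes, with Cpt1a, the gatekeeper of mitochondrial fatty acid import, at 0.65. Of 12 genes for SREBP proteases and other lipid synthesis 10 lay below 0, with a median of -0.348, and 3 had all 4 arrays below: Lpin1, a phosphatidate phosphatase, at -1.40, Aacs, which activates acetoacetate for lipid synthesis, at -1.16, and Mbtps2, a protease that cuts SREBPs, at -0.78. The isoprenoid side branches had -0.154 over 8 genes. Among glial markers Vim was at -1.70 and S100b at 0.80. The arrays of replicate 1 had more probes well above background at 6 h than the others (74.5% to 79.8%, against 64.2% to 72.0%). The part of these differences in the result was not tested. At each time the 4 arrays of a replicate share a slide, and culture, labelling and slide cannot be told apart.

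**Figure D2:**
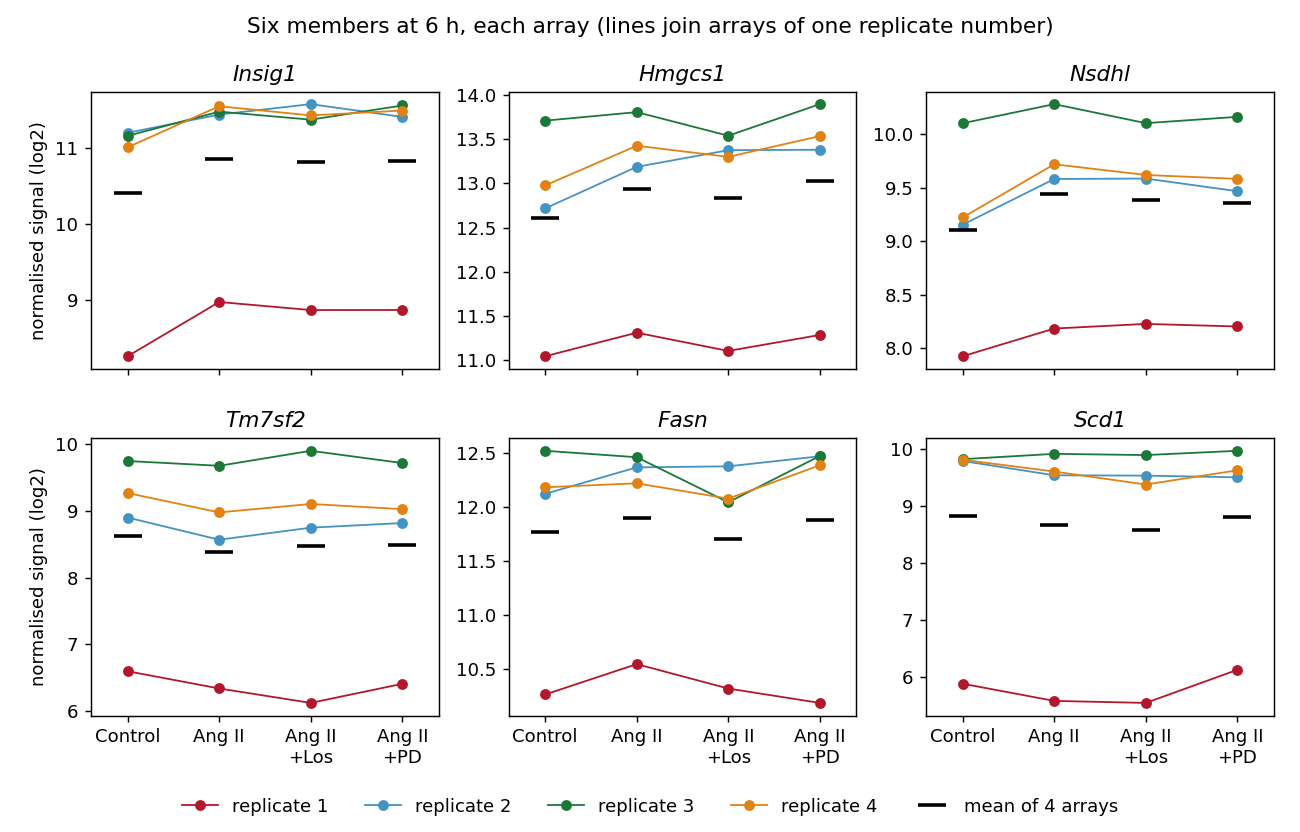
Normalised log2 signal of 6 members on each of the 16 arrays at 6 h, by treatment; coloured lines join arrays of one replicate number and black bars are means of 4 arrays. Replicate 1 lies below the others throughout (Insig1 8.26 to 8.98 against 11.01 to 11.58), and for Insig1, Hmgcs1 and Nsdhl every line rises from Control to Ang II.

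Because of these gaps, Ang II was compared with Control within replicates. The groups of 4 arrays overlapped for all 32 members in every comparison of the study, a count not made over all genes. Each difference below is a mean of 4 pairs from a limma fit with the replicate as a block. A member is called higher or lower at an unadjusted p under 0.05, the threshold of the study. With Benjamini-Hochberg adjustment over all genes, 0 members and 0 genes passed 0.05 in any of the 6 comparisons of the study, and in Ang II x Control 1737 genes at 3 h and 3538 at 6 h passed the unadjusted one.

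In Ang II x Control at 6 h, 7 of 32 members (21.9%) passed, 6 higher and 1 lower. Of all genes 21.5% passed, so the number called was near the background. Over all genes the calls were even, 10.6% higher and 10.9% lower. With 75th percentile scaling the members again gave 6 higher and 1 lower, while the share of higher genes among all called went from 49.5% to 39.3%. With the normexp background they gave 3 higher and 2 lower (18.7% of all genes called, 49.7% of those higher). The median log2 difference of the members was 0.118 and 26 of 32 lay above 0, against a median of -0.00575 and 48.7% above 0 for all genes. By pair, the members' median was 0.000717, 0.241, -0.0216 and 0.157 in replicates 1 to 4, so it was well above 0 in replicates 2 and 4 and near 0 in the others. Without replicate 4, 3 of 32 members passed (11.4% of all genes), and without replicate 3, 10 of 32 (23.3%).

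Both Insig genes, whose proteins retain SREBPs, rose. Insig1 read 8.26, 11.20, 11.16 and 11.01 in Control (replicates 1 to 4) and 8.98, 11.44, 11.48 and 11.55 with Ang II. It was higher with Ang II in 4 of 4 pairs, and in replicate 1, where its level was lowest, the difference was 0.71, the widest of the 4. The mean log2 difference was 0.45 ± 0.0816 (SE, n = 4 pairs), or 1.37-fold (limma, adjusted p = 0.0583), which ranked 37 among 16441 genes by p. Its probe lies at chr4:2578292-2578348 (rn4, minus strand).

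Insig2, its homologue, read 6.35, 6.60, 6.63 and 6.92 in Control and 6.48, 6.98, 6.85 and 7.24 with Ang II. It rose in 4 of 4 pairs by 0.26 ± 0.0593 log2 units (limma, adjusted p = 0.0804), and its 2 probes gave 0.29 and 0.24. The signal was low, and with the normexp background the difference was 0.084 and did not pass.

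Nsdhl, a dehydrogenase that takes part in removing methyl groups from the sterol ring, read 7.93, 9.16, 10.10 and 9.22 in Control and 8.19, 9.58, 10.28 and 9.72 with Ang II. It rose in every pair by 0.18 to 0.50, on average by 0.34 ± 0.072 log2 units (limma, adjusted p = 0.0678). Its probe lies at chrX:158954224-158954283 (rn4, plus strand). With the normexp background it had 0.21 and did not pass.

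In the mevalonate branch 3 of 7 genes rose (10.6% of all genes did). Hmgcs1 read 11.05, 12.72, 13.71 and 12.98 in Control and 11.31, 13.19, 13.80 and 13.43 with Ang II. It was higher in 4 of 4 pairs, by 0.32 ± 0.105 log2 units (limma, adjusted p = 0.137), and did not pass without replicate 4 (0.28). Idi1, the isopentenyl diphosphate isomerase, rose by 0.38 ± 0.132 (limma, adjusted p = 0.145), with pairs of 0.18, 0.71, -0.03 and 0.67, and lost its call once replicate 2 or replicate 4 was left out. Pmvk, phosphomevalonate kinase, rose by 0.14 ± 0.0645 (limma, adjusted p = 0.228) and passed only without replicate 3 when 1 replicate was left out.

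Tm7sf2 was the member that fell. It read 6.60, 8.90, 9.75 and 9.27 in Control and 6.34, 8.57, 9.68 and 8.98 with Ang II, lower in 4 of 4 pairs, by -0.24 ± 0.0885 log2 units (limma, adjusted p = 0.164). It lost its call once replicate 2 or replicate 4 was left out. In the sterol branch Tm7sf2 and Nsdhl thus went opposite ways, and the other 9 sterol genes did not pass.

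The remaining named enzymes gave small differences. Sqle, squalene epoxidase, read 11.94, 13.00, 12.93 and 13.04 in Control and 11.92, 13.17, 12.98 and 13.14 with Ang II (0.07, 95% interval -0.0726 to 0.22). Cyp51, lanosterol demethylase, had -0.04 (-0.244 to 0.168), and Srebf2 had 0.01 (-0.138 to 0.152). Fasn read 10.27, 12.12, 12.52 and 12.18 in Control and 10.55, 12.37, 12.46 and 12.22 with Ang II (0.13, -0.114 to 0.365), and Scd1 had -0.17 (-0.404 to 0.0698). The 4 pairs of Cyp51 gave -0.33, 0.09, -0.07 and 0.16. Srebf2 read 10.20, 10.96, 11.25 and 11.18 in Control and 10.19, 10.94, 11.25 and 11.23 with Ang II, so the groups nearly coincided. No gene of the fatty acid branch passed, although 8 of 9 lay above 0, with a median of 0.0935.

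Of the members not yet named, 4 had estimates that missed the threshold with intervals that just included 0. Hsd17b7 had 0.35 (-0.03 to 0.726), Dhcr7 0.33 (-0.00188 to 0.67), Stard4 0.28 (-0.00538 to 0.56) and Sc5dl, a sterol desaturase, 0.17 (-0.00134 to 0.332). Elovl5 had 0.25, Fads1 0.20, Acat2 0.19, Acss2 0.17, Lss 0.16, Fdps 0.11, Mvd 0.11, Acly 0.09 and Elovl6 0.06. Sc4mol (0.04), Ebp (0.02), Scd (0.01), Fads2 (0.01), Mvk (-0.02), Scap (-0.04) and Fdft1 (-0.07) lay close to 0.

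**Figure D3:**
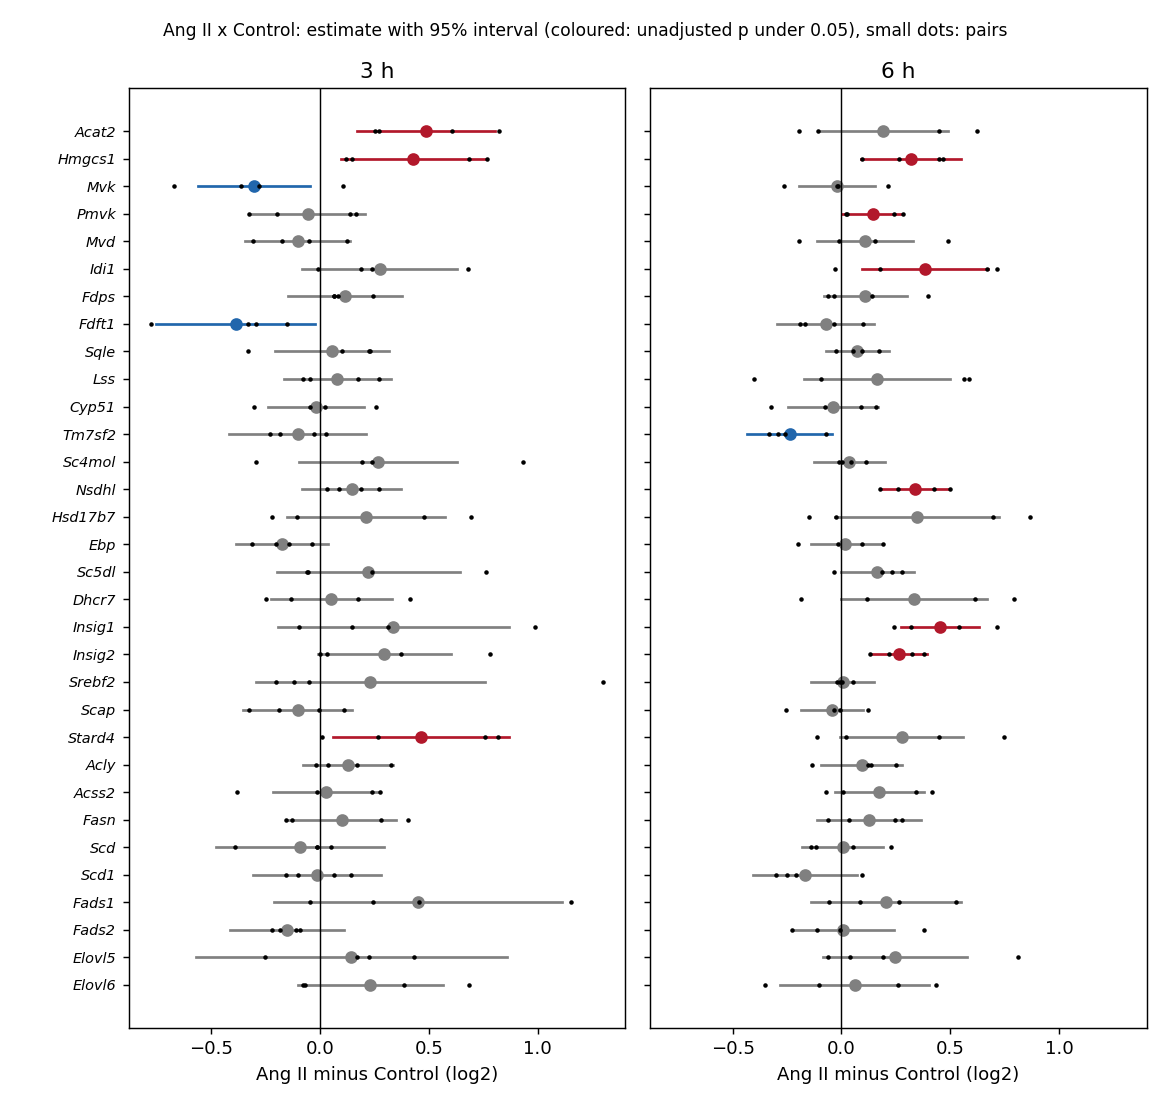
Ang II minus Control (log2) for the 32 tested members at 3 h and 6 h; large points are limma estimates with 95% intervals, coloured where the unadjusted p is under 0.05 (red higher, blue lower), and small dots are the 4 replicate pairs. At 6 h Insig1 (0.45), Nsdhl (0.34) and Insig2 (0.26) have intervals away from 0 and 4 pairs on one side.

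At 3 h, 5 of 32 members (15.6%) passed in Ang II x Control, against 12.7% of all genes, 3 higher (5.36% of all genes) and 2 lower (7.38%). The median of the members was 0.107 and that of all genes 0.00203. Scaled to the 75th percentile, 2 members passed higher and 1 lower, and the share of higher genes among all called went from 42.1% to 22.1%. Only 2 of 32 members passed without replicate 2 (6.69% of all genes) and 2 without replicate 4 (5.74%). Acat2, the cytosolic thiolase that starts the pathway, read 11.24, 12.17, 10.83 and 12.29 in Control and 11.51, 13.00, 11.08 and 12.90 with Ang II. It rose in 4 of 4 pairs by 0.49 ± 0.146 log2 units (limma, adjusted p = 0.322).

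Hmgcs1 read 11.22, 12.81, 11.65 and 12.94 in Control and 11.34, 13.49, 11.79 and 13.71 with Ang II at 3 h. It rose by 0.43 ± 0.153 (limma, adjusted p = 0.342), higher in all 4 pairs, and did not pass without replicate 4. Stard4, a carrier of cholesterol between membranes, rose by 0.46 ± 0.186 (limma, adjusted p = 0.365), with pairs of 0.01, 0.82, 0.26 and 0.76. It lost its call once replicate 2 or replicate 4 was left out. Of its 2 probes, fitted singly, 1 gave 0.52 and passed, and the other gave 0.40 and did not.

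Fdft1, squalene synthase, fell by 0.39 log2 units at 3 h (SE 0.168, limma, adjusted p = 0.378). It read 11.09, 10.84, 10.41 and 10.26 in Control and 10.76, 10.06, 10.12 and 10.11 with Ang II, lower in all 4 pairs, and lost its call once replicate 2 or replicate 3 was left out. Mvk, mevalonate kinase, fell by 0.30 (limma, adjusted p = 0.353), with 3 pairs lower and 1 higher, and lost its call when replicate 1, 2 or 4 was left out. Insig1 had 0.34 at 3 h (95% interval -0.194 to 0.868) with 0.99 in replicate 2 and -0.10 in replicate 3. Srebf2 had 0.23 (-0.296 to 0.758) with 1.30 in replicate 2 and values below 0 in the others.

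Insig1 read 7.94, 10.69, 10.31 and 9.99 in Control and 8.09, 11.68, 10.21 and 10.30 with Ang II at 3 h. Insig2 had 0.30 (-0.00867 to 0.6), higher in 4 of 4 pairs, and Nsdhl 0.15 (-0.0818 to 0.372), also higher in 4 of 4 pairs, neither past the threshold. Stard4 read 6.51, 7.28, 5.84 and 7.47 in Control and 6.52, 8.10, 6.11 and 8.23 with Ang II. The widest interval among the members at 3 h was that of Elovl5 (0.14, -0.572 to 0.858). The spread behind it includes the Ang II+Los arrays, which are not in this comparison. Their standard deviation was 0.99, against 0.21 in Control and 0.27 with Ang II.

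Among the main enzymes at 3 h, Sqle had 0.06 (-0.205 to 0.318), Cyp51 -0.02 (-0.238 to 0.203), Fasn 0.10 (-0.148 to 0.349) and Scd1 -0.01 (-0.306 to 0.28). Hmgcs1 was called higher at both times. When the Ang II difference at 6 h was tested against that at 3 h, 0 of 32 members passed an unadjusted limma p of 0.05 (7.18% of all genes did), so no member is shown to differ between the times.

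The next question was whether blocking a receptor moved these genes away from their level with Ang II alone. In Ang II+Los x Ang II (called the Losartan comparison), 2 of 32 members at 6 h (6.25%) passed, both lower, against 1.99% of all genes (0.815% higher, 1.17% lower). The median of the members was -0.0565 with 27 of 32 below 0, and that of all genes -0.000849. The Ang II arrays are shared with Ang II x Control, where 26 of 32 lay above 0, so these counts are not independent. With 75th percentile scaling 1 passed, lower, and the share of higher genes among all called went from 41% to 53.1%. Leaving out any 1 replicate left 0 (replicates 1 and 3) or 1 (replicates 2 and 4) of 32 past the unadjusted limma threshold.

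Srebf2 read 10.19, 10.94, 11.25 and 11.23 with Ang II and 10.01, 10.91, 10.97 and 11.04 with Ang II+Los. It fell by 0.17 log2 units (SE 0.0662, limma, adjusted p = 1), lower in 4 of 4 pairs. Sqle read 11.92, 13.17, 12.98 and 13.14 with Ang II and 11.65, 13.00, 12.80 and 13.10 with Ang II+Los, and fell by 0.17 (SE 0.067, limma, adjusted p = 1), also in 4 of 4 pairs. Srebf2 lost its call when replicate 1, 3 or 4 was left out, and Sqle when replicate 1, 2 or 3 was. All 9 fatty acid genes lay below 0, with a median of -0.095, and 0 of them passed the unadjusted limma test.

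The genes that rose with Ang II at 6 h were then compared between Ang II alone and Ang II with either antagonist. Insig1 differed by -0.05 with Losartan added (95% interval -0.227 to 0.13) and by -0.03 with PD123319 added (-0.206 to 0.15). Nsdhl had -0.06 (-0.215 to 0.0998) and -0.09 (-0.245 to 0.0699), Insig2 -0.01 (-0.135 to 0.124) and -0.08 (-0.21 to 0.0489), and Hmgcs1 -0.10 (-0.333 to 0.128) and 0.09 (-0.139 to 0.323). None of these 8 differences passed, and their intervals still allow part of the rise to have been reversed. The genes were picked by their signal on the Ang II arrays, which these comparisons use again. An excess there by chance would by itself put the differences below 0, so their signs alone cannot tell a reversal from chance.

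Set against Control, both antagonist groups had higher Insig1. With Ang II+Los it read 8.87, 11.58, 11.37 and 11.43, or 0.40 ± 0.0816 above Control (limma, adjusted p = 0.0406). With Ang II+PD123319 it read 8.87, 11.41, 11.56 and 11.49, or 0.42 ± 0.0816 (limma, adjusted p = 0.0401). Insig1 was higher in 4 of 4 pairs in both, and it was the only member with an adjusted p under 0.05 in either contrast, where 1.42% and 1.38% of all genes had one. Over the 15 alternatives tested its adjusted p ran from 0.0309 to 0.999 with Ang II+Los and from 0.0326 to 0.999 with Ang II+PD123319. These contrasts and Ang II x Control share the 4 Control arrays, so they are not separate evidence, and Control always lay at position 1.

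The others are given side by side. Against Control at 6 h, Nsdhl had 0.34 with Ang II, 0.28 with Ang II+Los and 0.25 with Ang II+PD123319, and Insig2 had 0.26, 0.26 and 0.18, all past the unadjusted threshold. With the normexp background neither gene passed with an antagonist: Nsdhl had 0.12 (Ang II+Los) and 0.09 (Ang II+PD123319), and Insig2 0.11 and 0.0099. Insig2 with Ang II+PD123319 also lost its call without replicate 4 (0.16), and Nsdhl with Ang II+Los lost its call with the methods' paired t-test. Hmgcs1 had 0.32, 0.22 and 0.41, of which 0.22 did not pass. Idi1 had 0.38, 0.32 and 0.37, which all passed. Each Idi1 call was lost once replicate 2 or replicate 4 was left out, and with the methods' paired t-test. Tm7sf2 had -0.24, -0.16 and -0.14, of which the last 2 did not pass. Srebf2 was 0.16 log2 units below Control with Ang II+Los (log2 difference -0.16, limma, adjusted p = 0.181). It was 0.20 higher with Ang II+PD123319 than with Ang II+Los (limma, adjusted p = 0.457). Both passed the unadjusted threshold. The first call was lost without replicate 1, 3 or 4 and with quantile normalisation. The second was lost without replicate 3 or 4 and with the methods' paired t-test.

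**Figure D4:**
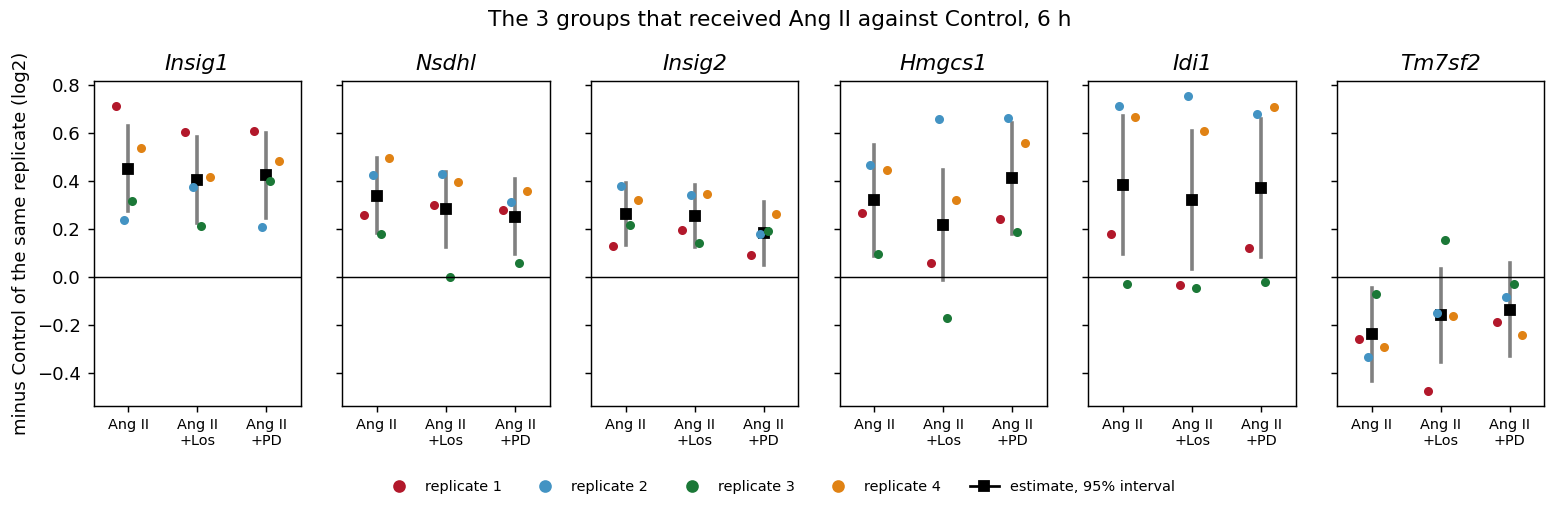
Difference from the Control array of the same replicate at 6 h (log2) for 6 members with Ang II, Ang II+Los and Ang II+PD123319; coloured points are replicates, black squares are limma estimates and grey bars 95% intervals. Insig1 is above 0 in every pair of all 3 groups (0.45, 0.40 and 0.42), while Idi1 rests on replicates 2 and 4.

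The PD123319 comparison (Ang II+PD123319 x Ang II) had 0 of 32 members past the unadjusted limma p of 0.05 at 3 h (2.99% of all genes) and 0 at 6 h (6.37%). The methods' paired test called 1 member at 3 h, lower (4.05% of all genes called), and 6 at 6 h, 2 higher and 4 lower (8.71%). The medians of the members were -0.0807 and -0.0226, and of all genes -0.0185 and -0.00379. The members' log2 differences ran from -0.26 (Hsd17b7) to 0.09 (Fdft1) at 3 h and from -0.16 (Mvd, mevalonate diphosphate decarboxylase) to 0.15 (Scd1) at 6 h. The intervals are wider at 3 h: that of Insig1 was -0.754 to 0.309, which still includes a sizeable fall and a smaller rise.

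In the Losartan comparison at 3 h, 4 of 32 members (12.5%) passed, against 10.9% of all genes, 2 higher (4.87% of all genes) and 2 lower (6.04%). Without replicate 2, 0 of 32 passed an unadjusted limma p of 0.05 and 1.98% of all genes did. Fads1 read 10.40, 10.95, 8.05 and 9.22 with Ang II and 10.24, 8.57, 7.92 and 8.80 with Ang II+Los. It fell by 0.77 log2 units (SE 0.305, limma, adjusted p = 0.427), mostly through replicate 2 (-2.38), and was at -0.23 without it. Elovl5, an elongase of polyunsaturated fatty acids, had -0.83 (limma, adjusted p = 0.427), with pairs of -1.33, -2.01, 0.36 and -0.36. On 3 of the 4 arrays with Losartan its probe stood well above background, and it entered the test through the other groups (4 of 4 each). A stricter filter (well above background on all 16 arrays) left it out. With that filter 3 of 31 members passed, 2 higher and 1 lower, against 11.3% of all genes. In the scan that held replicates 3 and 4 Elovl5 had 0.0042, which is not lower. Its signal with Ang II+Los was 4.10, 3.86, 5.80 and 5.57, against 5.42, 5.87, 5.43 and 5.93 with Ang II.

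Insig1, Srebf2, Hmgcs1, Sqle, Cyp51, Fasn and Scd1 did not pass with Losartan added at 3 h. Insig1 read 8.09, 11.68, 10.21 and 10.30 with Ang II and 8.15, 9.86, 10.05 and 10.28 with Ang II+Los, a log2 difference of -0.48 (95% interval -1.01 to 0.0488) that came mostly from replicate 2. Cyp51 had 0.17 (-0.0491 to 0.391), Sqle 0.10 (-0.166 to 0.357), Hmgcs1 0.06 (-0.272 to 0.393), Srebf2 0.02 (-0.506 to 0.547), Fasn -0.0049 (-0.253 to 0.244) and Scd1 -0.04 (-0.33 to 0.256). With PD123319 added at 3 h Hmgcs1 had -0.15 (-0.487 to 0.178), Cyp51 -0.09 (-0.307 to 0.134), Sqle -0.08 (-0.343 to 0.18), Scd1 -0.07 (-0.361 to 0.225), Srebf2 -0.02 (-0.55 to 0.503) and Fasn -0.01 (-0.259 to 0.238).

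At 6 h Cyp51 had -0.06 with Losartan added (-0.262 to 0.15) and 0.02 with PD123319 added (-0.182 to 0.231), and Fasn had -0.19 (-0.433 to 0.0465) and -0.02 (-0.259 to 0.22). Scd1 had -0.07 (-0.309 to 0.164) and 0.15 (-0.0901 to 0.383). Sqle and Srebf2, which passed with Losartan, had -0.03 (-0.179 to 0.114) and 0.03 (-0.115 to 0.174) with PD123319. None of these differences with PD123319 passed, nor did Cyp51, Fasn and Scd1 with Losartan.

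Tm7sf2 rose by 0.37 (SE 0.145, limma, adjusted p = 0.427) and Scap by 0.26 (SE 0.116, limma, adjusted p = 0.427) with Ang II+Los at 3 h, both in 4 of 4 pairs. Tm7sf2 read 6.15, 8.63, 7.47 and 9.06 with Ang II and 6.58, 9.49, 7.55 and 9.19 with Ang II+Los. Scap read 10.06, 10.00, 10.31 and 9.77 with Ang II and 10.34, 10.42, 10.42 and 9.98 with Ang II+Los. Tm7sf2 lost its call when replicate 1 or 2 was left out, and Scap when replicate 1, 2 or 4 was.

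Genes of neighbouring pathways were read in Ang II x Control at 6 h, where 21.5% of all genes passed. Of 12 tested genes for SREBP proteases and other lipid synthesis 1 rose and 2 fell: Aacs had 0.28 (limma, adjusted p = 0.105), Dgat2, a triglyceride synthase, -0.60, and Fads3 -0.52. Of 9 genes for fatty acid oxidation Cpt1a rose, by 0.51 (limma, adjusted p = 0.0828). Of 8 genes of isoprenoid branches and prenylation 1 rose and 2 fell, with a median of -0.0402. Of 7 genes for sterol export and storage 0 passed in that comparison (unadjusted limma p), and in the Losartan comparison Abca1, a sterol exporter, had -0.30 and Abcg1 -0.19 at 6 h, past the unadjusted threshold (limma, adjusted p = 1), 2 of 7 genes beside 1.17% of all genes that were lower.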

How the data were processed

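Total RNA of C6 cells was hybridised to one-colour Agilent rat arrays and scanned, and the authors extracted the spots with Agilent Feature Extraction 9.5.3.1 (per the file headers, which place probes on rn4). The deposited scanner files hold processed signal and mean and background intensity per spot. The deposited table holds log2 values by the authors, not normalised between arrays: 99.45% of its values for probes printed once equal log2 of the processed signal within 1e-06, and 38.2% of its cells are blank. Its column medians run from 6.386 to 8.141. No column of sample values was left unused.

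Here processed signals were averaged over the spots of a probe, leaving out spots marked as outliers, and log2 was taken. At 3 h, dim spots were first set to the scanner's error estimate, as the scanner software offers but had applied only at 6 h, so the lowest values are floors. Arrays of each time were normalised by fast cyclic loess (span 0.7, 3 iterations). A probe was kept if well above background on all 4 arrays of a group, with at most 2 gaps, and probes of a gene were averaged. Groups were fitted with limma 3.58.1 in R 4.3.3, with the replicate number as a block, p-values being adjusted over all genes. The series record calls the authors' tests paired, at the unadjusted threshold used here. The numbers pair the arrays: deviations of same-numbered arrays from their group means correlated by at least 0.147 at 3 h and 0.549 at 6 h, and 16 of 16 arrays at each time correlated best with their own number. No pair of replicates held the same values (correlation at most 0.9904). The fit was tested on simulated data.

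Array values are given for members that passed with 1 sign in 4 of 4 pairs (at most 5 per comparison) and for Insig1, Srebf2, Hmgcs1, Sqle, Cyp51, Fasn and Scd1, which are described whatever their values, some by range or pair. Genes named outside this rule (Idi1, Pmvk, Mvk, Elovl5 and those of the replicate comparison) were chosen after their values were seen. Members and lists were chosen with earlier results of these data known. Alternatives were no block, the methods' paired t-test (a test fitted per gene), 75th percentile scaling, quantile normalisation, normexp background (offset 50), stricter and no filters, single probes, the deposited table, the 8 arrays of a comparison, each scan, and leaving out each replicate.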

Additional observations from a re-analysis of the deposited data

Results flagged for a closer look

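Among 120 sets of 4 arrays (15 genes in 8 groups), 23 held 1 array far from the other 3. Chance gives this in about 1 set in 20, and the sets are not independent, since the arrays of a replicate number share a slide. The rule was not run over all genes, so the count is not shown to be particular to these genes. All 23 arrays were of replicate 1. Values are normalised log2 signals.

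At 3 h the replicate 1 array of Fasn read 9.85 in Control, 9.69 with Ang II and 9.87 with Ang II+Los, and that of Scd1 5.66 with Ang II+Los and 5.46 with Ang II+PD123319. Sqle read 11.72 with Ang II+Los. Each was below the other 3 arrays. Fdft1 with Ang II, at 10.76, was above them.

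At 6 h Insig1 read 8.26 in Control, 8.98 with Ang II, 8.87 with Ang II+Los and 8.87 with Ang II+PD123319. Scd1 read 5.88, 5.58, 5.54 and 6.12 in the same order. Fasn read 10.55 with Ang II, 10.32 with Ang II+Los and 10.19 with Ang II+PD123319, and Sqle 11.94 in Control and 11.92 with Ang II. With Ang II+Los, Hmgcs1 read 11.11 and Srebf2 10.01. These were all low, whereas Fads1 with Ang II+Los, at 10.84, was high.

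The effect of Losartan on Scap (Ang II+Los x Ang II) was lower by 0.28 log2 units at 6 h than at 3 h (difference -0.28, unadjusted limma p under the threshold, adjusted p = 0.702). It was the only one of 32 members to differ between the times in this comparison, where 5.05% of all genes did.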

How the results depend on the processing

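The replicate block decided the calls. With no replicate block, 0 members were called for Ang II against Control (3 h and 6 h), 1 for the Losartan comparison at 3 h and 0 at 6 h, and 0 for the PD123319 comparison, where the paired fit called 5, 7, 4, 2 and 0. Of all genes 2.63% and 4.03% were called without the block for Ang II against Control, 2.52% and 0.225% for the Losartan comparison, and 0.455% and 0.76% for the PD123319 comparison (3 h, 6 h). Leaving out 1 replicate gave 2 to 5 members for Ang II against Control at 3 h (5.74% to 13.5% of all genes), 3 to 10 at 6 h (11.4% to 23.3%), 0 to 4 for the Losartan comparison at 3 h (1.98% to 13.5%) and 0 to 1 at 6 h (1.14% to 4.77%). The methods' paired t-test called 2 members for Ang II against Control at 3 h (8.84% of all genes), 1 for the Losartan comparison at 3 h (2.85%), and 1 (3 h, 4.05%) and 6 (6 h, 8.71%) for the PD123319 comparison. Under that test Hmgcs1, Mvk, Fdft1 and Stard4 lost their calls for Ang II against Control at 3 h, and Idi1 and Pmvk at 6 h. Tm7sf2, Fads1 and Elovl5 lost theirs in the Losartan comparison at 3 h.

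For Ang II against Control at 3 h, 3 members were called with 75th percentile scaling (12.6% of all genes), 3 with the normexp background (12.5%), 2 of 18 in the deposited values (12.4%) and 2 in scan 1 alone (4.85%). In the Losartan comparison at 3 h, 2 of 18 were called in the deposited values (11.2%), 6 with 75th percentile scaling (10.8%), 0 with the 8 arrays alone (3.01%) and 0 in scan 2 alone (4.57%). The median of the members was then 0.115 with 75th percentile scaling. In the PD123319 comparison at 3 h, 1 was called with the 8 arrays alone (6.27%) and 1 in scan 2 alone (4.53%). At 6 h, scan 3 alone gave 3 for Ang II against Control (11.4%). In the Losartan comparison, 1 member was called with 75th percentile scaling (1.84%), with normexp (1.56%), in the deposited values (of 23, 1.85%) and in scan 3 alone (1.66%), and scan 4 alone gave a median of -0.114. Scan 4 held 1 replicate, so no test was possible there.

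Elovl5 turned to 0.0042 in the Losartan comparison and to -0.20 in the contrast of the antagonists in scan 2 alone at 3 h. For the replicate sets, alternatives were added after seeing the data: at 6 h 16 of 23 members lay below in replicate 1 in the deposited values and the median was -1.16 with normexp, while at 3 h the median was -0.678 with normexp and -1.02 in the deposited values. For replicate 3 at 6 h, normexp gave 11 members above and a median of 0.745. The share of all genes under these settings is not given here, so neither count is set against a background. The causes were not tested. At 3 h the median standard error over genes was 0.159, and at 6 h 0.103, which with 4 arrays a group limits what could be seen.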
